A study of Mus musculus with 4 samples.

Results

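The 77 barcodes described here came from the injured hindlimbs of mice and carried fibroblast collagen transcripts but almost no transcripts of the mitochondrial genome. They were chosen by measured values in the 2 injured single-cell libraries. A barcode needed 200 or more detected genes, under 0.5% of its unique molecular identifiers (UMIs, counted molecules) from mitochondrially encoded genes, and 1% or more from Col1a1, Col1a2, Col3a1 and Dcn together. It also needed fewer than 3 UMIs of immune genes (Ptprc, Tyrobp), of endothelial genes (Pecam1, Cdh5) and of mural genes (Rgs5, Myh11, Notch3), fewer than 5 of keratins (Krt5, Krt14) and fewer than 2 of proliferation genes (Mki67, Top2a, Cenpf, Birc5, Ube2c). The 77 barcodes were 40 from littermate control mice and 37 from Ddr2 slie/slie mice, of 2581 deposited barcodes in the series. They are called low-mitochondrial fibroblasts below, and fibroblast barcodes under the same limits with 0.5% to 20% mitochondrial UMIs are called normal-mitochondrial fibroblasts.

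Both genotypes received a dorsal burn over 30% of the body surface and a left Achilles tenotomy, and tissue was taken at day 7. Mice labelled slie/slie carry 2 copies of slie, a deletion within Ddr2, which encodes a receptor for fibrillar collagen. Limbs of 2 mice were combined in each library, left limbs as injured and right limbs as uninjured, so that each of the 4 groups had 1 library and the uninjured limbs came from burned mice too. The tissue spanned the tendon from its muscle junction to the heel and what lies behind the tibia, ages were not stated, and suspensions passed a viability limit before loading. The sample labels of the littermate controls carry WT, and their genotype was not given in more detail.

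Fibroblasts fill a wound with collagen-rich matrix. Collagens and other matrix proteins are made on ribosomes bound to the endoplasmic reticulum (ER), because their messages begin with a code for a hydrophobic signal peptide, and they are folded, crosslinked and secreted from there. The mitochondrial genome encodes a small set of respiratory chain subunits and its transcripts stay inside the organelle, whereas most respiratory chain subunits are encoded in the nucleus and translated in the cytosol. The mitochondrial share of a barcode's UMIs is a routine quality measure in droplet data, used mostly to set aside barcodes in which it is high.

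Low-mitochondrial fibroblasts were found in both injured libraries and in neither uninjured one. Among fibroblast barcodes of any mitochondrial share they were 40 of 175 in the control library (22.9%, exact 95% binomial interval 16.9% to 29.8%) and 37 of 68 in the slie/slie library (54.4%, 41.9% to 66.5%). The same rule found 0 of 60 in slie/slie uninjured tissue, which allows up to 5.96%, and 0 of 5 in control uninjured tissue, where so few fibroblasts allow up to 52.2%. No mitochondrial UMI at all was seen in 29 control members (of 40) and 24 slie/slie members (of 37). The highest mitochondrial share was 0.434% among control members and 0.385% among slie/slie members, and the nearest fibroblast barcodes outside the limit stood at 0.512% and 0.595%. On the collagen limit the lowest members had 1.09% and 1.05%, and the nearest barcodes outside had 0.997% and 0.929%. Intervals here and below cover counting error only, and with 1 library per genotype the shares compare 2 libraries. Depth floors differed as well. The smallest deposited barcode had 500 UMIs in control and 259 in slie/slie injured tissue, and 48 and 501 in uninjured tissue. Under 500 UMIs lay 17 slie/slie members and 7 slie/slie normal-mitochondrial fibroblasts, a depth absent from the control injured library, so shares and depths were not like for like.

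Barcodes low in mitochondrial UMIs were common among other cells of the injured libraries too. Of barcodes with 200 or more genes, 49.5% under the control genotype and 60.6% under slie/slie were below 0.5% after injury, against 3.57% and 8.87% in the uninjured libraries of the same genotypes. Under the immune gate the injured shares were 127 of 240 (52.9%) and 38 of 55 (69.1%), and under the keratin gate 15 of 21 (71.4%) and 8 of 13 (61.5%). Mural barcodes (10 of 50 and 5 of 20) and endothelial barcodes (4 of 26 and 1 of 6) had smaller shares. In slie/slie uninjured tissue the immune gate held 5 of 11 (45.5%) and the endothelial gate 8 of 53 (15.1%) under the limit. Cycling fibroblasts, which the rule leaves out, were under the limit in 6 of 38 and 3 of 11. The deposited libraries held 842 and 375 injured barcodes with 4515174 and 1493147 UMIs in all, and 1 barcode sequence was shared, between the 2 control libraries.

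The members were shallow. Control members had 505 to 7569 UMIs (median 768.5) and 301 to 2508 genes, and slie/slie members had 282 to 5133 UMIs (median 551) and 202 to 1846 genes. Normal-mitochondrial fibroblasts numbered 126 and 28, with medians of 2375 and 1132.5 UMIs. One of the 28, at 0.595% mitochondrial UMIs, had 76827 of their 163571 UMIs. Summed, the members held 54398 and 35345 UMIs.

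**Figure D1:**
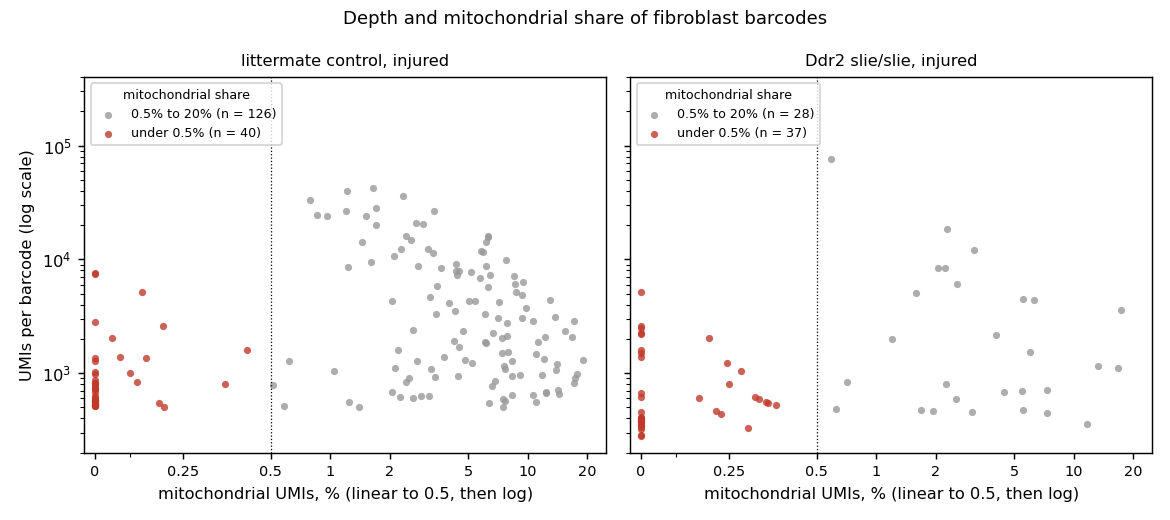
Each point is a fibroblast barcode, with its mitochondrial share on the horizontal axis (%, linear up to 0.5 and logarithmic beyond) and its UMIs on the vertical logarithmic axis, for control injured (left) and Ddr2 slie/slie injured tissue (right). Red points are the 40 and 37 members, none above 7569 UMIs, and grey points the 126 and 28 normal-mitochondrial fibroblasts.

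The fibroblast label was held against markers that the rule did not use. Of 20 general fibroblast markers, 18 had UMIs in control members and 19 in slie/slie members, and their summed share of a member's UMIs had medians of 2.00% and 1.91%, against 2.67% and 2.57% in normal-mitochondrial fibroblasts. Sparc, a secreted collagen-binding protein, had UMIs in 33 of 40 and 32 of 37 members, and the matrix proteoglycan gene Bgn in 27 and 25. Pdgfra, the receptor most used to define fibroblasts, had none in the 40 control members and 1 UMI in 1 of 37 slie/slie members. It was detected in 63 of 126 and 11 of 28 normal-mitochondrial fibroblasts. With every barcode thinned to 500 UMIs, Pdgfra was in 0 of 40 against 14 of 126 in control and in 0 of 20 against 5 of 21 in slie/slie tissue, where 17 members and 7 others were too shallow to be thinned. The label therefore rests on matrix genes, and the receptor that defines the lineage was at or near 0. Acta2 and Tagln, contractile genes that the rule did not use, were in 17 and 11 of 40 thinned control members, against 18 and 14 of 126. In slie/slie tissue they were in 10 and 8 of 20 against 7 and 6 of 21. Whether some members are contractile cells of another type was not tested.

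Collagen RNA was also found in cells that should lack it. Among 127 immune barcodes under 0.5% mitochondrial UMIs in control injured tissue, with a median of 1570 UMIs, 43 had a Col1a1 UMI, 21 a Col3a1 UMI and 24 a Sparc UMI (33.9%, 16.5% and 18.9%). After thinning to 500 UMIs Col1a1 and Col3a1 were in 17 and 7 of 127 (13.4% and 5.51%). Sparc, which the rule did not use, was then in 6 of 127 (4.72%) and in 28 of the 40 control members. In slie/slie tissue, where the median was 1792 UMIs, 3 of 38 such immune barcodes had a Col1a1 UMI and 2 a Col3a1 UMI. Just under the limit on collagen, 29 control and 4 slie/slie barcodes with 0.5% to 1% met every other limit.

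Markers of other lineages gave few UMIs in the members, but some gave more per UMI than in normal-mitochondrial fibroblasts. The 12 endothelial and the 9 mast cell and platelet markers had 0 UMIs in both libraries, and the 10 markers of T, NK and B cells had 0 and 1. The 12 neutrophil markers gave 28 UMIs in control and 8 in slie/slie members, and the 14 monocyte and macrophage markers 27 and 1, with Csf3r, Cxcr2 and Ly6g of the first list and Adgre1, Csf1r and Cd68 of the second at 0 in both. S100a9, Lyz2 and Apoe were nevertheless higher in control members than in normal-mitochondrial fibroblasts by the comparison described below. Neutrophil markers were at 515 against 176 CPM in control and 227 against 37.6 CPM in slie/slie tissue, CPM being UMIs per 1000000 non-mitochondrial UMIs. Macrophage markers were at 497 against 154 CPM and 28.3 against 25 CPM. Pericyte and smooth muscle markers gave 20 and 30 UMIs, at 368 against 370 CPM and 849 against 545 CPM. Keratinocyte markers gave 15 and 11 UMIs, at 276 against 62.6 CPM and 311 against 75.1 CPM, with Sbsn higher in control members. Hemoglobin was more abundant. The 9 erythroid markers summed to 76 UMIs in control and 396 in slie/slie members, and 3 slie/slie members had 12.9% to 14.4% of their UMIs from hemoglobin genes, against at most 0.727% in any control member. Those 3 had 1.34% to 1.67% collagen and Dcn UMIs and no UMI of Gm42418 or of mitochondrial genes. The part of these transcripts in the results below was not tested, and without members at 2% or more hemoglobin 62 of the 71 genes lower in both libraries, 10 of the 16 higher in both, and 23 of 31 higher and 35 of 40 lower between genotypes kept their calls.

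Members differed widely in Malat1, a long noncoding RNA kept in the nucleus (chr19:5795690-5802672, minus strand, mm10). It ran from 0% to 28.0% of a control member's UMIs (median 0.371%) and from 0% to 15.9% in slie/slie members (median 0.0664%). It was at 5% or more in 9 control and 6 slie/slie members and had no UMI in 14 and 15. The 9 Malat1-rich control members had ribosomal protein transcripts at a median of 8.32% of UMIs, against 17.3% in the other 31. In slie/slie tissue the medians were 7.63% for the 6 Malat1-rich members and 16.2% for the other 31. The members thus held some barcodes rich in Malat1 and many with none detected. A spread was also present in normal-mitochondrial fibroblasts. Malat1 ran there from 0% to 12.9% in control (median 0.187%) and from 0% to 9.66% in slie/slie tissue (median 0.167%). It was at 5% or more in 16 of 126 and 1 of 28, and the 16 had a ribosomal protein median of 9.89%. One control member of 5211 UMIs gave 964 of the 1853 Malat1 UMIs of all 40.

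**Figure D2:**
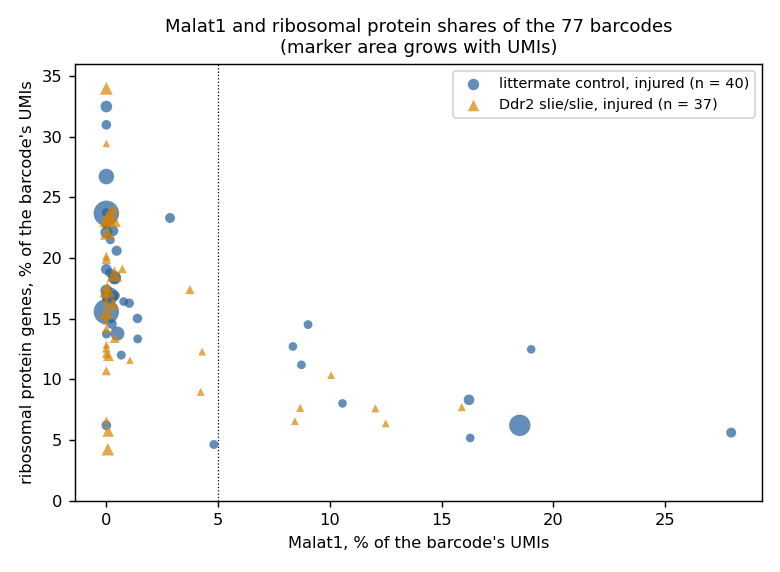
Each marker is 1 of the 77 members, with Malat1 on the horizontal and ribosomal protein genes on the vertical axis, both as % of the barcode's UMIs. Circles are control, triangles Ddr2 slie/slie, and marker area grows with UMIs. The 15 members right of the dotted line at 5% Malat1 all lie below 15% ribosomal protein UMIs.

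Gm42418, an annotated transcript that overlaps ribosomal RNA sequence (chr17:39846958-39848788, plus strand), spanned 1.04% to 36% of UMIs in control members (median 4.78%) and 0% to 58.1% in slie/slie members (median 6.0%). It was at 20% or more in 3 control and 6 slie/slie members, and none of these 9 was among the 15 Malat1-rich members. Normal-mitochondrial fibroblasts had Gm42418 at 0.171% to 30.2% in control (median 6.61%) and 0.624% to 27.9% in slie/slie tissue (median 7.78%). Ribosomal protein transcripts took a median of 16.6% of UMIs in control members (4.64% to 32.5%) and 14.2% in slie/slie members (4.25% to 34%). The medians of normal-mitochondrial fibroblasts were 11.3% and 13.3%, and the ranges overlapped in both libraries.

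The values of the 4 genes of the collagen limit and of the 6 markers given for these barcodes are a description, since the rule or the choice of markers used them. Col1a1 (chr11:94936224-94953042, plus strand), the larger chain of type I collagen, had UMIs in 39 of 40 and 37 of 37 members and summed to 10410 and 11099 CPM. Normal-mitochondrial fibroblasts had 33745 and 36649 CPM. Col3a1 (chr1:45311538-45349706, plus strand), type III collagen, stood at 6254 and 4870 CPM in the members against 16722 and 9629 CPM. The collagen and Dcn share had medians of 2.47% and 2.12% in the members and 6.61% and 6.99% in normal-mitochondrial fibroblasts, so that members carried less collagen RNA per UMI although both classes passed the same limit.

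Of the other 4 markers, Cthrc1 was lower in control members, as the collagens were, and the rest were not called lower in either library. H19 (chr7:142575529-142578143, minus strand), an imprinted noncoding RNA, had UMIs in 24 of 40 and 14 of 37 members, at 1747 and 1699 CPM against 1540 and 1640 CPM in normal-mitochondrial fibroblasts. Timp1 (chrX:20870166-20874735, plus strand), a metalloproteinase inhibitor, was in 20 and 15 members, at 1122 against 1157 CPM in control and 1529 against 707 CPM in slie/slie tissue. Cthrc1 (chr15:39076932-39087121, plus strand), a marker of matrix-producing fibroblasts, was in 16 and 16 members, at 607 against 998 CPM and 963 against 726 CPM. Mest (chr6:30723547-30748465, plus strand), an imprinted gene of growing tissue, was in 13 and 11 members, at 938 against 614 CPM and 680 against 476 CPM. Of the 51 Mest UMIs in control members 27 were in 1 barcode. In barcodes of 500 to 2000 UMIs the control log2 ratios were 0.76 for Cthrc1 and -0.55 for Mest, both turned in direction. In immune barcodes under 0.5% mitochondrial UMIs these 4 genes had UMIs in 2 to 8 of 127 in control and in 0 of 38 in slie/slie tissue.

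Genes of both classes were then compared within each library as a ratio of summed CPM, with an exact conditional binomial 95% interval. A gene was called higher or lower in the members at 1.5-fold or more with an interval that excluded 1, given 20 or more UMIs over both classes. In control tissue 285 of 5481 tested genes were higher in the members (5.2%) and 176 lower (3.21%). In slie/slie tissue 65 of 1487 were higher (4.37%) and 143 lower (9.62%). Across the 1487 genes tested in both, 16 were higher in both libraries (1.08%), 71 lower in both (4.77%, 68 without the rule's Col1a1, Col1a2 and Col3a1) and 6 called in opposite directions. A gene with few UMIs could pass as higher more easily than as lower because the members held 6.49% and 18.1% of the UMIs. Among the 1994 genes with enough UMIs to be called either way in control tissue, 169 were higher and 176 lower. The median log2 ratio over all tested genes was 0 in control and -0.10 in slie/slie tissue. Genes with 0 UMIs in 1 class were set to 0 where a floor of 3 counts in that class would have turned the direction. With 50 or more UMIs per gene the medians were -0.03 in control and -0.08 in slie/slie tissue.

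Matrix genes were among those lower in both libraries. Of 15 tested collagens outside the rule, 9 were lower in control members (median log2 ratio -1.44), and of 11 in slie/slie members 10 were lower (median -1.80). Col4a1, Col4a2 and Col15a1 were higher in control members, and no collagen of the list was higher in slie/slie members. The 8 lower in both were Col5a1, Col5a2, Col6a1, Col6a2, Col6a3, Col11a1, Col12a1 and Col14a1, whose chains assemble into, or bind to, collagen fibrils and microfibrils. Elastic fiber and matricellular genes were lower in 12 of 21 (median -0.72) and 11 of 16 (median -1.18), with Spp1 higher in slie/slie members. Genes of activated fibroblasts were lower in 11 of 22 (median -0.75) and 10 of 20 (median -0.96), with Acta2, Lgals1 and Myl9 higher in control and Timp1 in slie/slie members. General fibroblast markers were lower in 10 of 20 (median -0.63) and 12 of 18 (median -1.22), with Lgals1 higher in control and S100a6 in slie/slie members. These lists share genes such as Sparc, Postn and Col5a1.

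**Figure D3:**
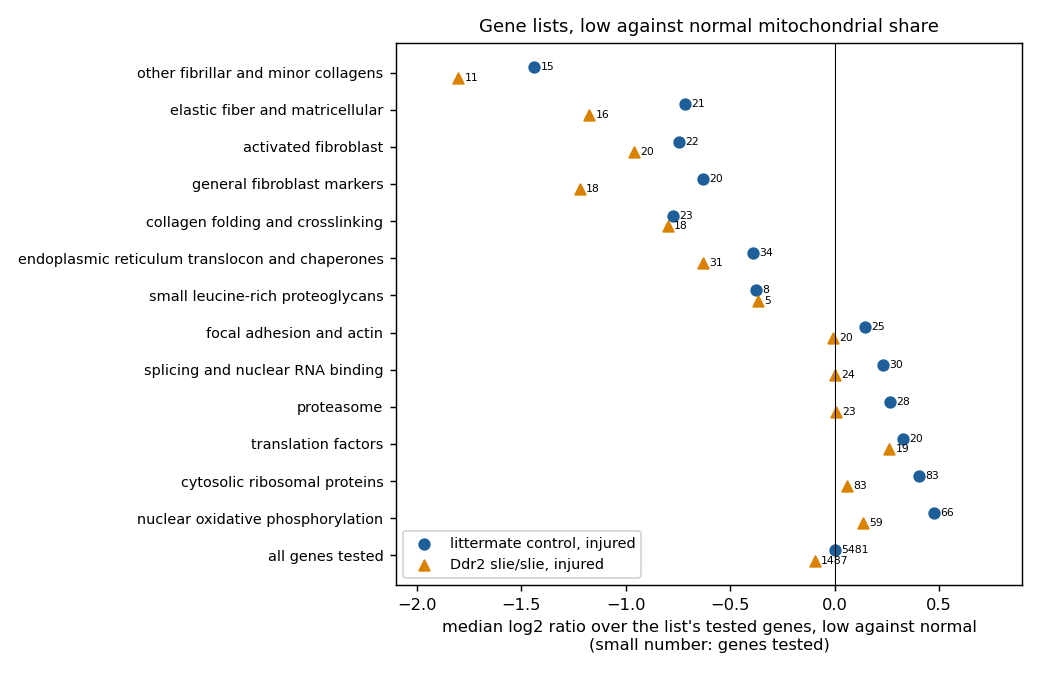
Median log2 ratio of members against normal-mitochondrial fibroblasts (horizontal axis) for 13 gene lists and all tested genes (rows). Circles are control, triangles Ddr2 slie/slie injured tissue, and the small number is the count of genes tested. The collagen list lies lowest, at -1.44 and -1.80, and the list of nuclear-encoded respiratory chain genes is at 0.48 and 0.14.

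Single matrix genes were lower by different amounts. Fbn1, the main component of microfibrils, had 12 UMIs in control members (221 CPM) and 937 in normal-mitochondrial fibroblasts (1196 CPM), 5.42-fold lower (95% interval 3.09 to 10.5). In slie/slie tissue it had 5 UMIs (142 CPM) against 178 (1114 CPM), 7.87-fold lower (3.31 to 24.5). Col5a1, which starts collagen fibrils, was 5.68-fold lower (3.62 to 9.46) in control and 4.18-fold lower (2.57 to 7.26) in slie/slie members. Col12a1, a collagen on the surface of fibrils, was 4.55-fold (2.87 to 7.71) and 4.07-fold lower (2.33 to 7.75). Col14a1, its relative, was 5.09-fold lower (2.57 to 11.9) in control members and listed at 0 UMIs in slie/slie members, at least 3.54-fold lower against a floor of 3 counts. These genes were low in both libraries, and their levels in normal-mitochondrial fibroblasts of the 2 genotypes were close except for Col14a1.

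Col6a1 and Col6a2, chains of the beaded filament collagen VI, were 3.99-fold and 3.15-fold lower in control and 3.49-fold and 3.46-fold lower in slie/slie members. Col11a1, a minor chain of cartilage-type fibrils, was 4.07-fold and 3.57-fold lower. Aebp1, a collagen-binding secreted protein, was 4.11-fold lower (3.04 to 5.72) and 2.44-fold lower (1.76 to 3.48). Postn, a matricellular protein of wounds, had 131 and 68 UMIs in the members, at 2410 and 1925 CPM against 5107 and 5985 CPM, and was 2.12-fold lower (1.78 to 2.54) and 3.11-fold lower (2.43 to 4.04). Fstl1, a secreted glycoprotein, was 2.07-fold lower (1.73 to 2.5) and 2.38-fold lower (1.82 to 3.16). Fn1, fibronectin, was 2.07-fold and 2.25-fold lower, and Tnc, tenascin C, 4.56-fold and 2.25-fold lower. Sparc was the most abundant of the lower genes outside the rule, at 6714 and 7022 CPM against 10867 and 12840 CPM, 1.62-fold lower (1.46 to 1.80) and 1.83-fold lower (1.60 to 2.09).

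Secreted and surface proteins outside the matrix lists were also among the 71. The secreted Wnt antagonist genes Sfrp1 and Sfrp2 were 3.40-fold and 3.25-fold lower in control and 3.22-fold and 4.38-fold lower in slie/slie members, though with barcodes thinned to 500 UMIs the log2 ratio of Sfrp2 in slie/slie tissue was 0.58. Cxcl5, a chemokine that draws neutrophils, was 4.26-fold lower (2.61 to 7.48) and 2.78-fold lower (1.70 to 4.87). Cpxm1, a secreted carboxypeptidase-like protein, was 3.41-fold and 7.19-fold lower, the second from 2 UMIs (interval 1.91 to 60.6). Ncam1, a neural cell adhesion molecule, had 1 UMI in control and 0 in slie/slie members against 164 and 38. Pdgfra was at least 4.28-fold lower in control members, where it had 0 UMIs against 185, and 6.85-fold lower (1.14 to 279) in slie/slie members on 1 UMI against 31. Itgb1, the integrin chain shared by the collagen-binding integrins, was 3.50-fold lower (2.28 to 5.68) and 2.86-fold lower (1.69 to 5.21). Igf2r, Il6st, Lrp1, Antxr1 and Cd63, all membrane proteins, were lower in both libraries too. Some secreted genes went the other way in control members. Sfrp4 and Rspo3 of the Wnt list, Mmp13 of the metalloproteinase list, and Igfbp6 and Igfbp7 of the insulin-like growth factor list were higher there. Of the 9, 13 and 9 genes of these lists tested in control tissue, 3, 4 and 3 were lower in the members. In slie/slie tissue 6 genes of each list were tested, of which 2, 3 and 4 were lower and none higher. Over all tested genes 5.2% were higher and 3.21% lower in control members, and 4.37% and 9.62% in slie/slie members.

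Genes that build the secretory route were lower in smaller number. Of ER translocon and chaperone genes, 7 of 34 tested were lower in control (median -0.39) and 8 of 31 in slie/slie members (median -0.63), and 2 of 34 and 0 of 31 were higher. The 6 lower in both were Ssr1 and Rpn1, subunits at the translocon, Hspa5, Hsp90b1 and Pdia3, luminal chaperones and a disulfide isomerase, and Kdelr2, which returns such proteins to the ER. Hspa5 was 2.62-fold lower (1.79 to 3.99) in control and 2.22-fold lower (1.37 to 3.84) in slie/slie members, and Hsp90b1 2.33-fold and 2.40-fold. Of collagen folding and crosslinking genes 7 of 23 (median -0.78) and 5 of 18 (median -0.80) were lower, and both sets held Serpinh1, the collagen chaperone, and Sparc. Serpinh1 was 1.71-fold lower (1.26 to 2.38) and 1.93-fold lower (1.36 to 2.83).

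Depth bears on these ratios, since members were shallower. With both classes limited to barcodes of 500 to 2000 UMIs, 15 of the 71 genes kept their call in both libraries and 61 kept their direction in both. With barcodes thinned to 500 UMIs 13 kept the call and 64 the direction. Without the 3 deepest barcodes of each class 43 kept the call and 69 the direction. The 16 genes higher in both, described next, held less well: 0 kept the call and 10 the direction in the window, 1 and 12 after thinning, and 5 and 16 without the 3 deepest barcodes. The median of the activated fibroblast list in slie/slie tissue was 0.12 in the window of 500 to 2000 UMIs, in place of -0.96. The limits of the rule mattered too. At a mitochondrial limit of 1%, 27 of the 71 lower genes kept the call and 51 the direction, and of the 16 higher genes 1 and 14. At a collagen limit of 2% these were 27 and 71 of the lower genes and 4 and 12 of the higher.

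Fewer genes were higher in both libraries. Hemoglobin genes were 4 of the 16 and Rps14, a ribosomal protein, another. Anxa1, a lipid-binding protein of the cytosol, had 23 UMIs in control members (423 CPM) against 146 (186 CPM) and 17 in slie/slie members (481 CPM) against 27 (169 CPM), 2.27-fold higher (1.39 to 3.54) and 2.85-fold higher (1.46 to 5.42). Clic1, a chloride channel protein found largely in the cytosol, was 2.01-fold higher (1.28 to 3.05) and 2.33-fold higher (1.24 to 4.22). Stub1, a ubiquitin ligase that works with cytosolic chaperones, was 2.24-fold and 2.65-fold higher, and Pa2g4, a ribosome-associated protein, 2.40-fold and 3.46-fold. Atp5e, a nuclear-encoded subunit of ATP synthase, was 1.87-fold higher (1.31 to 2.62) and 1.85-fold higher (1.16 to 2.88). Cdc37, an HSP90 cochaperone, Suclg1, a mitochondrial matrix enzyme, and Anapc13, a subunit of the anaphase-promoting complex, completed the cytosolic and nuclear-encoded ones. In barcodes of 500 to 2000 UMIs the slie/slie log2 ratio was 0.04 for Anxa1, 1.63 for Clic1 and 1.04 for Stub1, and the ratios of Atp5e were 0.06 in control and 0.11 in slie/slie members.

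Fth1, Gpx1 and Saa3 were also higher in both but depended on few members. Fth1, the ferritin heavy chain, was 1.51-fold higher (1.31 to 1.72) in control and 1.83-fold higher (1.5 to 2.22) in slie/slie members. Gpx1, a glutathione peroxidase, was 2.60-fold (1.86 to 3.57) and 1.82-fold higher (1.10 to 2.94). Saa3, an acute phase protein, was 1.64-fold (1.03 to 2.51) and 2.76-fold higher (1.55 to 4.83). Without the slie/slie members at 2% or more hemoglobin the log2 ratios there were -0.12 for Fth1, 0.25 for Gpx1 and -0.87 for Saa3. Anxa1, Clic1, Stub1, Pa2g4 and Atp5e had 1.45, 1.17, 1.53, 1.91 and 0.85 under the same limit.

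Lists of cytosolic and nuclear-encoded mitochondrial genes lay at or above 0. Of nuclear-encoded respiratory chain genes, 14 of 66 were higher in control (median 0.48), among them Cox4i1, Atp5g1 and Ndufa13. In slie/slie members 2 of 59 were higher and 1 lower (median 0.14). The mitochondrially encoded genes, fixed by the rule, summed to 30 and 26 UMIs in all members. Cytosolic ribosomal protein genes were higher in 19 of 83 in control (median 0.40) and 1 of 83 in slie/slie members (median 0.06), with 2 of 83 lower in each library. Translation factors were higher in 3 of 20 (median 0.33) and 0 of 19 (median 0.26), proteasome genes in 1 of 28 (median 0.26) and 0 of 23 (median 0.01), and splicing genes in 3 of 30 (median 0.23) and 0 of 24 (median 0). Over all tested genes 5.2% were higher in control and 4.37% in slie/slie members, so that the proteasome list and the slie/slie counts of all 5 lists were at or below the background. The difference between the libraries was not tested.

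Lists for stress and fate were small and are set beside the shares of all genes (5.2% higher and 3.21% lower in control, 4.37% and 9.62% in slie/slie tissue). Of heat shock genes 0 of 15 in control and 1 of 9 in slie/slie members (Hspa4) were higher, and none was lower. Of integrated stress response genes 1 of 9 (Nupr1) and 0 of 2 were higher, of p53 and apoptosis genes 1 of 7 (Phlda3) and 0 of 3, and none of either list was lower. Glycolysis genes were higher in 2 of 13 (Gpi1 and Gapdh) and 3 of 9 (Aldoa, Tpi1 and Pkm), above the shares of all genes. Immediate early genes were lower in 2 of 19 in control (Ier3 and Cyr61, median -0.36), with Ier2 higher. In slie/slie members 4 of 7 were lower (Jund, Ier3, Klf6 and Cyr61, median -1.26). Hypoxia genes were lower in 3 of 13 in control (Hif1a, Ddit4 and Mt2) and 0 of 6 in slie/slie members, where Mt1 was higher. Of chondrogenic genes Acan and Col11a1 were lower in control and Col11a1 in slie/slie members, of 8 and 2 tested. Of osteogenic genes 0 of 3 were called in control and Spp1, 6.66-fold higher (3.59 to 12.6), in slie/slie members.

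The lower genes shared a feature of their coding sequence that the rule did not use. Codons with T in the middle position encode the hydrophobic amino acids phenylalanine, leucine, isoleucine, methionine and valine, and signal peptides near the start of secreted proteins are rich in them. The largest number of such codons among any 9 in a row was counted within the first 40 codons of each gene's coding sequence (GENCODE vM21), and 6 or more of 9 was called a run. Of the 71 genes lower in both libraries 70 had a coding sequence and 48 had a run (68.6%), against 2 of 16 higher in both (12.5%), 2 of 12 without hemoglobin genes (16.7%) and 26.6% of the 1471 tested in both. Without Col1a1, Col1a2 and Col3a1, which the rule used, it was 47 of 67 lower genes (70.1%). In control tissue 60.6% of lower, 20.6% of higher and 19.2% of uncalled genes had a run, and in slie/slie tissue 60.3%, 18% and 23.3%. The measure was chosen after the lower genes were seen, and a run is a description of letters, not proof of a signal peptide.

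The first 120 coding bases are shown for the 3 genes with the most member UMIs among those lower, and among those higher, in both libraries, leaving out the rule's genes, hemoglobin, predicted genes and Rps14. Capitals mark the 9 codons in a row with the most middle T. Sequences are 5′ to 3′ on the coding strand from GENCODE vM21 transcripts (GRCm38, the same assembly as mm10), and the lower genes Sparc (gene at chr11:55394500-55423183, minus strand), Postn (chr3:54361109-54391037, plus) and Fstl1 (chr16:37776873-37836514, plus) come first.
Sparc: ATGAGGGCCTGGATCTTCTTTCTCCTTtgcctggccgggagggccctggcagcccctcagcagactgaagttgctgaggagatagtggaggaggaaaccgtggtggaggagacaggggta
Postn: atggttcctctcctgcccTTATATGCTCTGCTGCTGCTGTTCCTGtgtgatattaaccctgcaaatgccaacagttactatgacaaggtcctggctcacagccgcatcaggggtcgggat
Fstl1: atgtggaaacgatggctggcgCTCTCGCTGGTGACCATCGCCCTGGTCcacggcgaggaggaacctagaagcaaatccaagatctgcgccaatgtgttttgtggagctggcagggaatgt
These have 6, 7 and 6 middle-T codons in their best 9, starting at codons 1, 7 and 8. The higher genes are Fth1 (chr19:9980598-9985098, plus), Gpx1 (chr9:108338903-108340343, plus) and Atp5e (chr2:174461072-174464105, minus).
Fth1: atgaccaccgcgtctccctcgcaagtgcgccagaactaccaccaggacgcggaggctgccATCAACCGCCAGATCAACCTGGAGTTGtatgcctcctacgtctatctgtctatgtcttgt
Gpx1: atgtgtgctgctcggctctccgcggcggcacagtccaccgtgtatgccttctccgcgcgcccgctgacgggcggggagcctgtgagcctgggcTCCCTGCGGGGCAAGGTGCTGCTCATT
Atp5e: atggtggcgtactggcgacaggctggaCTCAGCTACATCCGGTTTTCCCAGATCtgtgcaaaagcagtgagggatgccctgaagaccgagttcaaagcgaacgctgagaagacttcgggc
Their best windows hold 4, 5 and 4 such codons, starting at codons 21, 32 and 10.

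Not every lower gene had a run. The 22 lower genes without one included Col11a1, Col12a1, Col14a1, Col6a1, Cpxm1, Sfrp1 and Lum, all secreted proteins whose first 40 codons did not reach 6 of 9. Saa3 and Clic1 were the 2 higher genes with a run. Small leucine-rich proteoglycan genes had a run in 9 of 11, yet their list medians were -0.38 and -0.37, and 3 of 8 and 2 of 5 were lower.

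Transcript length moved with the same genes. Among genes with a coding sequence, the median annotated transcript had 3826.5 bases for 70 lower genes, 913.5 for the 16 higher genes and 2113 for the 1471 tested. Among genes with 50 or more UMIs outside the rule, the median log2 ratio in control tissue was -0.40 for 639 genes with a run and 0.07 for 1942 without. Split at the median length of 2700 bases, the values were -0.66 with and -0.13 without a run for longer transcripts, and -0.09 and 0.24 for shorter ones. In slie/slie tissue they were -0.60 for 161 genes with and 0.02 for 378 without, and after a split at 1633 bases -0.97 and -0.09 for longer and -0.07 and 0.10 for shorter transcripts. With all barcodes, medians of genes with a run were below those without one in both length classes, by a smaller margin among short transcripts. In barcodes of 500 to 2000 UMIs, medians of longer transcripts were -1.15 with and 0.05 without a run in control tissue, and -0.88 and 0.07 in slie/slie tissue. Shorter transcripts there had 0.28 with and 0.45 without a run in control, and 0.92, over 8 genes, with and 0.46 without in slie/slie tissue, so that the order of the last pair was turned.

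**Figure D4:**
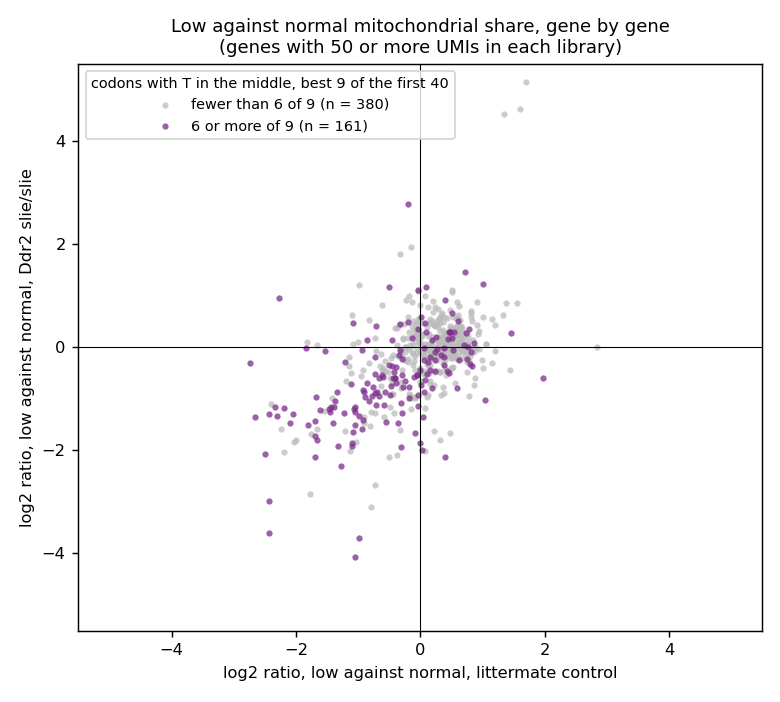
Each point is a gene with 50 or more UMIs in each library (n = 541), with the log2 ratio of members against normal-mitochondrial fibroblasts in control tissue on the horizontal and in Ddr2 slie/slie tissue on the vertical axis. Purple points have 6 or more middle-T codons among any 9 in a row of the first 40. Of the 161 purple genes 94 lie below 0 in both libraries, and of the 380 grey genes 79.

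The members of the 2 genotypes were compared last, as 2 libraries with unequal depth floors and no test of genotype. Of 666 genes with 20 or more UMIs over both sums, 31 were higher (4.65%) and 40 lower (6.01%) in slie/slie members, and the median log2 ratio over all of them was 0.01. Ddr2 (chr1:169972307-170110762, minus strand), the gene changed in these mice, had 4 UMIs in 3 control members and 0 in slie/slie members, a depth at which no difference was detectable. Over whole injured libraries it had 116 UMIs in control and 0 in slie/slie tissue, and over whole uninjured libraries 5 and 2. None of the 6 markers was called between genotypes. Col1a1 had 10410 and 11099 CPM, H19 1747 and 1699 CPM, and the ratio for Cthrc1 was 1.59-fold higher in slie/slie members with an interval that held 1 (0.953 to 2.64).

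Of the 71 genes called between genotypes, 4 kept the call under 5 alternatives together: without the 3 deepest barcodes, with barcodes weighted equally, thinned to 500 UMIs, without each gene's highest barcode, and under 2% hemoglobin. Lars2 (chr9:123366927-123462666, plus strand), a mitochondrial leucyl-tRNA synthetase, had 47 UMIs in control members (864 CPM) and 83 in slie/slie members (2350 CPM), 2.72-fold higher (1.88 to 3.98). It was 1.57-fold lower in slie/slie than in control among normal-mitochondrial fibroblasts, and Gm42418 had the same pair of directions, 1.86-fold higher in the members and 1.53-fold lower. Hp (chr8:109575128-109579172, minus strand), haptoglobin, was 6.37-fold lower in slie/slie members (3.32 to 13.7), with 98 UMIs in 10 control and 10 UMIs in 5 slie/slie members. It was 3.31-fold lower among normal-mitochondrial fibroblasts too. Srrm2 (chr17:23790532-23824741, plus strand), a splicing protein, was 5.33-fold lower (2.11 to 17.3). Malat1 was 3.43-fold lower (3.06 to 3.86), but its log2 ratio was 0.02 without the Malat1-rich members and 0.30 with a collagen limit of 2%.

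Some genotype calls rested on single barcodes. Without each gene's highest barcode, which left 450 genes tested, 15 of 31 higher and 17 of 40 lower genes kept the call. The direction was kept by 29 and 38. Of 45 Apod UMIs in control members 41 were in 1 barcode, of 35 Lbp UMIs 29, of 194 Mgp UMIs 155 and of 56 Serping1 UMIs 42. These 4 genes, a lipocalin, a lipopolysaccharide-binding protein, a matrix calcification inhibitor and a complement inhibitor, were 29.2-fold, 11.4-fold, 7.88-fold and 6.06-fold lower in slie/slie members. Without the 3 deepest barcodes the log2 ratio of Lbp was 0.44, and with barcodes weighted equally that of Serping1 was 0.11. Igfbp7, an insulin-like growth factor binding protein, was 3.43-fold lower (2.58 to 4.62), and 2 barcodes held 234 of its 306 control UMIs. Nupr1, a stress-induced nuclear protein, H2-D1, a class I histocompatibility gene, Map4k4, a kinase, and Col4a1, a basement membrane collagen, were 5.85-fold, 4.16-fold, 4.03-fold and 4.38-fold lower, each from 3 to 5 UMIs in slie/slie members.

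C1qtnf3, a secreted protein of the C1q family, was 10.0-fold higher in slie/slie members (3.47 to 39.5), with 26 UMIs in 7 barcodes against 4 UMIs in 4 control barcodes. Contractile genes Tagln and Csrp2 were 1.95-fold and 1.77-fold higher, as they were among normal-mitochondrial fibroblasts (2.19-fold and 2.05-fold). The actin-binding gene Cnn3 was 2.44-fold higher (1.12 to 5.51). The matrix genes Tnc and Lox were 2.36-fold and 2.10-fold higher, the growth factor gene Ptn 2.42-fold, and the imprinted noncoding RNA Meg3 2.31-fold. The chaperone gene Hsp90ab1 was 1.99-fold higher (1.36 to 2.93), the ubiquitin ligase gene Nedd4 1.84-fold and Hcfc1r1 2.41-fold. Tagln was at -0.33 and Meg3 at -1.20 on the log2 scale in barcodes of 500 to 2000 UMIs.

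**Figure D5:**
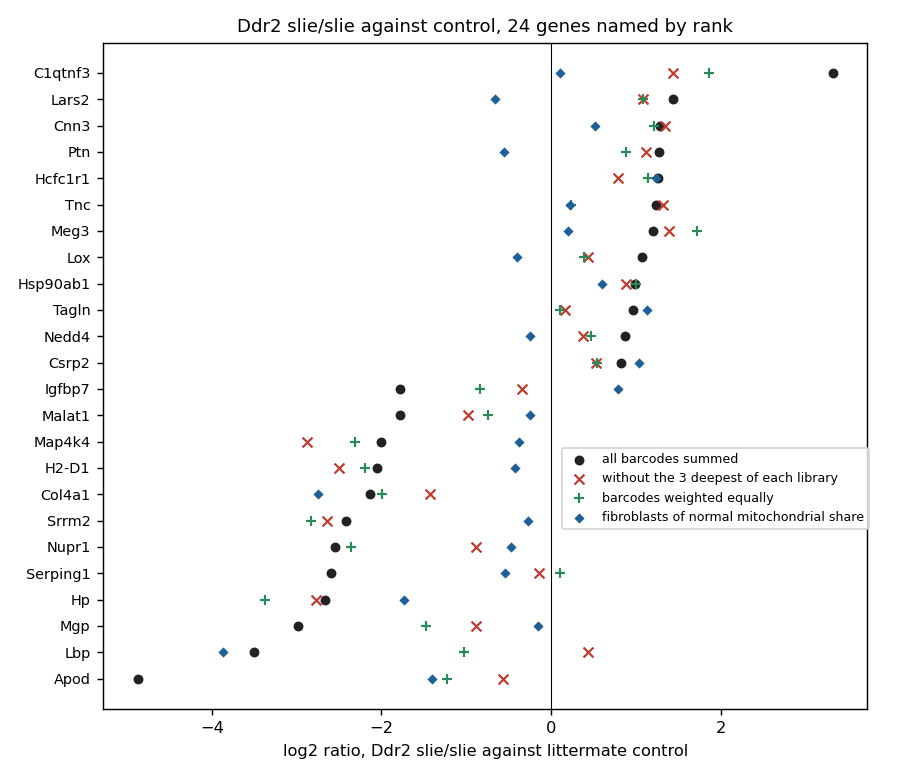
Log2 ratio of Ddr2 slie/slie against control (horizontal axis) for the 24 genes named by rank (rows). Black circles are the summed members, red crosses the members without the 3 deepest of each library, green plus signs members weighted equally, and blue diamonds normal-mitochondrial fibroblasts. Hp and Srrm2 lie well below 0 under all 3 member values, while Lbp and Serping1 each have 1 alternative above 0.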

How the data were processed

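Deposited matrices held raw UMI counts per gene and barcode for 4 libraries of 3′ single-cell RNA. Per the file headers the authors counted them by Cell Ranger 5.0.1, and the submitters' processing notes name mm10. For chemistry and annotation release, nothing was given in the sources used here. The files hold the barcodes the authors kept. The members, the gene lists and the tests were chosen with earlier results of these data known. No doublet caller was run. The rule limits UMIs of other lineages but allows a few and sets no erythroid limit, and 35 control and 35 slie/slie members had none of the limited genes.

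UMIs were summed over barcodes of a class and scaled per 1000000 non-mitochondrial UMIs. Ratios have exact conditional binomial intervals, shares exact (Clopper-Pearson) binomial intervals, both at 95%, and a count of 0 was replaced by a floor of 3 counts over the class, which gives a bound. A bound that passed a ratio of 1 was set to a log2 ratio of 0, and such genes enter the medians as 0. With 1 library per group there is no replicate and no p-value. Named genes were the 6 markers, the rule genes, Ddr2, up to 15 genes per direction called in both libraries with 30 or more UMIs in each, and 12 per direction between genotypes, ranked by the interval bound nearest 1. Mitochondrial, ribosomal protein, hemoglobin, predicted, Xist and Y-linked genes were left out of these ranks, and up to 4 members per list, and members called in both libraries, were added. Only 8 higher genes passed that rule. Igf2r, Il6st, Lrp1, Antxr1, Cd63, Cdc37, Suclg1 and Anapc13 were named after their values were seen, as were called genes of lists with few calls.

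Alternatives changed the limits of the rule, the totals, the weighting, the depth and the UMI minimum. A depth window of 500 to 2000 UMIs, leaving out Malat1-rich barcodes, totals without Gm42418, each gene without its highest barcode, genes callable either way and the codon count were added after the data were seen. Coordinates and coding sequences came from GENCODE vM21 (GRCm38), where 27645 of 27998 gene IDs matched, with the principal or else the longest coding transcript. The ratio code was tested on simulated data. Tools were Python 3.11.15, numpy 2.4.6, scipy 1.17.1, pandas 2.3.3 and matplotlib 3.10.9.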

Additional observations from a re-analysis of the deposited data

Results flagged for a closer look

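Of the genes tested in both injured libraries, 6 were called in opposite directions between low-mitochondrial and normal-mitochondrial fibroblasts, and the difference between the libraries was not tested. On the log2 scale, control first, the ratios were 0.79 and -0.95 for Myl9, a myosin light chain, 1.97 and -0.60 for Igfbp7, -1.01 and 1.51 for Ptx3, a secreted pentraxin, -2.28 and 0.95 for C1qtnf3, -2.13 and 1.39 for Slc38a2, an amino acid transporter, and -0.99 and 1.22 for Ahnak, a large scaffold protein. Slc38a2 had 3 and 11 UMIs in the members and Ptx3 10 and 12. Leaving out the 3 deepest barcodes of each class turned C1qtnf3 and Ahnak in slie/slie tissue to -0.23 and -0.29.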

How the results depend on the processing

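No paired analysis was possible because each group had 1 library. The members were 17 control and 10 slie/slie barcodes at 500 or more genes, and 24 and 21 at a collagen limit of 2%. Counts of called genes are given as higher then lower, of the genes tested. In the main comparison 5481 genes were tested in control, 1487 in slie/slie, 1487 in both and 666 between genotypes. Thinned to 500 UMIs they were 69 and 72 of 554 in control and 15 and 16 of 152 in slie/slie. They were then 5 and 13 of 152 in both, and 13 and 7 of 195 between genotypes. In barcodes of 500 to 2000 UMIs they were 82 and 78 of 549, and 15 and 20 of 155. There they were 4 and 17 of 155 in both, and 20 and 16 of 255 between genotypes. Without each gene's highest barcode the higher counts were 109 of 4822 in control, 42 of 768 in slie/slie and 7 of 768 in both. Those between genotypes were 19 and 23 of 450. Without the 3 deepest barcodes 92 of 555 were lower in slie/slie and 31 of 554 higher in both. Between genotypes 20 and 21 of 402 were then called. With genes of 50 or more UMIs 27 of 553 were higher in slie/slie and 9 of 551 in both. Between genotypes 14 and 14 of 230 were then called. The collagen limit of 2% gave 40 and 87 of 1323 in slie/slie and 5 and 30 of 1323 in both. It gave 15 of 349 higher between genotypes. With 0 UMIs of other lineages 90 of 661 were lower in slie/slie. Without Malat1-rich barcodes 26 of 1400 were higher in both. Genes callable either way gave 169 of 1994 higher in control.

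A mitochondrial limit of 1% moved 6 control barcodes (median 12662 UMIs) and 3 slie/slie barcodes, with the barcode of 76827 UMIs among them, into the low class. The non-mitochondrial UMIs of that class rose from 54368 to 137694 in control and from 35319 to 112998 in slie/slie tissue. The limit gave 286 of 5481 lower in control and 230 of 1487 higher in slie/slie. It gave 48 of 1487 higher in both, and 160 and 204 of 2040 between genotypes. Directions then turned, on the log2 scale, in slie/slie for Sfrp2 (1.00), Sparc (0.11), Serpinh1 (0.11), Hspa5 (0.17), Saa3 (-1.17), Myl9 (0.60), Ptx3 (-0.18), Igfbp7 (0.73), Ahnak (-0.67), Timp1 (-0.10), Malat1 (0.10) and Gm42418 (-0.67), in control for Sparc (0.28), Serpinh1 (0.03), Saa3 (-0.79), Cthrc1 (0.80) and Mest (-0.31), and between genotypes for Ptn (-0.67) and Tnc (-0.10).

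Other settings turned directions too, and the causes of these turns and of those at the 1% limit were not tested. Thinning gave 0.58 for Sfrp2 in slie/slie, -0.47 for Mest in control and -2.46 for Meg3 between genotypes. The 500 to 2000 UMI window gave -0.37 for Slc38a2, -0.11 for Ahnak and 0.12 for the activated fibroblast median in slie/slie, 0.76 for Cthrc1 and -0.55 for Mest in control, and -0.33 for Tagln, -1.20 for Meg3, 2.12 for Lbp and 0.37 for Igfbp7 between genotypes. Equal weights gave -0.77 for Ahnak and 0.83 for Malat1 in slie/slie, 0.01 for Cthrc1 and -0.18 for Mest in control, and 0.11 for Serping1 between genotypes. At 500 or more genes Slc38a2 was -0.45 in slie/slie and Meg3 -0.54 between genotypes. A collagen limit of 2% gave -0.37 for Gpx1 and -0.02 for Saa3 in slie/slie and 0.30 for Malat1 between genotypes. With 0 UMIs of other lineages Saa3 was -1.19 and Igfbp7 0.04 in slie/slie, and under 2% hemoglobin Fth1 was -0.12 and Saa3 -0.87. Leaving out the 3 deepest gave -0.23 for C1qtnf3 and -0.29 for Ahnak in slie/slie and 0.44 for Lbp between genotypes. Tnc was -0.06 between genotypes without its highest barcode, and Malat1 0.02 without Malat1-rich barcodes.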
